A study of Drosophila melanogaster with 12 samples.

Results

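The neurexin, neuroligin and teneurin genes of Drosophila melanogaster encode cell-surface proteins that pair across the synapse. They were taken by gene symbol as 8 genes of 14251 gene identifiers in the deposited tables: Nrx-1, Nrx-IV, Nlg1, Nlg2, Nlg3, Nlg4, Ten-a and Ten-m. All 8 were found, and all 8 passed the filter on low counts in each comparison. Poly(A) mRNA of ventral nerve cords dissected from wandering larvae of the third instar was measured in 12 samples, 4 in each of 3 groups. L854F larvae were homozygous for kdm5[L854F], a missense allele. JmjC larvae were homozygous for kdm5[JmjC*], described by the labels as demethylase inactive. The group called WT was itself a rescue genotype, kdm5 140 with a gKDM5 transgene. Whether the mutant alleles were carried on a transgene too, the sex of the animals, how many cords made a sample and whether samples came from separate cultures are not given in the labels, so p-values measure only the spread between these samples, which may be technical.

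Neurexins and neuroligins are a classical trans-synaptic pair: Nrx-1 sits mainly on the presynaptic side and binds neuroligins on the opposite membrane. At the larval neuromuscular junction, whose motor neurons lie in the ventral nerve cord, this pair helps to organise active zones and bouton growth. Teneurins are large transmembrane proteins that bind each other across the synapse, with Ten-a enriched in the motor neuron and Ten-m in the muscle. Nrx-IV, despite its name, is a core protein of septate junctions, the barrier junctions of epithelia and glia. KDM5, the protein altered in both mutants, removes methyl groups from lysine on histone H3 through its JmjC domain.

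The deposited libraries held between 15103631 and 16850705 expected counts. Replicates of a group differed by more than sampling noise (chi-square per degree of freedom from 8.13 to 27.8), so none was taken as a repeat of another. The kdm5 transcript, which a missense or catalytic allele need not change, lay between 729 and 795 CPM in L854F and between 727 and 813 CPM in JmjC, against 665 to 734 CPM in WT. It was called in neither mutant (adjusted p 0.309 for L854F and 0.201 for JmjC). CPM is counts per 1000000 counts of a library scaled by its TMM factor. Calls were made where the adjusted p was under 0.05 in edgeR's quasi-likelihood test with Benjamini-Hochberg adjustment over all genes tested, and every adjusted p below is from that test unless another is named.

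Of the 8 genes only Nlg1 passed the test, and it did so in all 3 comparisons. It was higher in L854F and lower in JmjC, each against the same 4 WT samples, and the mutants differed directly from each other. Thus 1 of 8 genes was called in L854F against WT, where 5.54% of the 9105 genes tested were called, and 1 of 8 in JmjC against WT, where 17.3% of 9244 were called. In L854F against JmjC it was again 1 of 8, against 16.0% of 9207 genes. By direction, 3.04% of tested genes were called higher and 2.49% lower for L854F against WT. The shares were 9.66% higher and 7.67% lower for JmjC against WT, and 7.20% higher and 8.80% lower for L854F against JmjC. In the same order, the median log2 fold change of the 8 genes was 0.03, -0.05 and 0.04, and that of all tested genes 0.0013, 0.0030 and 0.0016.

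**Figure D1:**
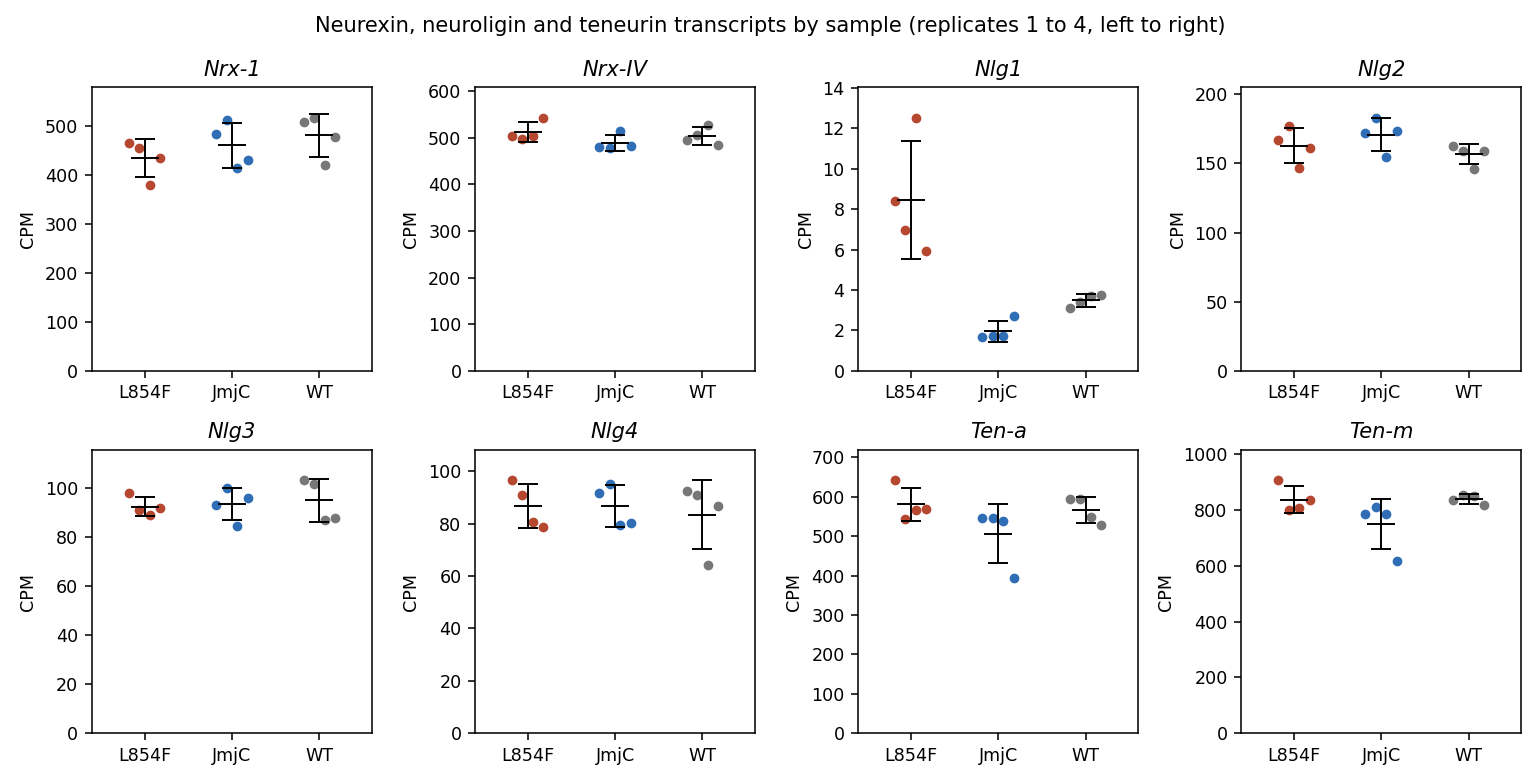
CPM of each gene in every sample, with replicates 1 to 4 from left to right within L854F, JmjC and WT; the bar and whiskers give the mean and SD of 4 samples, and each axis starts at 0. Nlg1 separates into 3 groups that do not overlap, and JmjC replicate 4 is low for Ten-a (394 CPM) and Ten-m (619 CPM).

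Levels between genes were compared only per kilobase of deposited gene length, since the genes differ in length. Nrx-IV was the highest in WT at 102 ± 3.85 CPM per kb (SD, n = 4), followed by Ten-m at 72.7 ± 1.46 CPM per kb. Nrx-1 stood at 44.9 ± 4.08 and Ten-a at 41.5 ± 2.47 CPM per kb in WT, and their samples overlapped. Nlg2 was the most abundant neuroligin at 29.4 ± 1.41 CPM per kb in WT. Nlg3 (14.5 ± 1.33 CPM per kb) and Nlg4 (13.1 ± 2.06 CPM per kb) overlapped. Nlg1 came last in WT at 0.514 ± 0.0448 CPM per kb.

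Among 9012 genes tested in every comparison, 91.7% had a lower WT level per kb than Nrx-IV and 87.5% a lower one than Ten-m, but only 2.61% had a lower one than Nlg1. The same order held in JmjC, where Ten-a also overlapped Nlg2. In L854F it differed by the exchange of Nrx-1 and Ten-a, whose samples overlapped there as well. Nlg1 was the lowest of the 8 in all 3 groups.

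**Figure D2:**
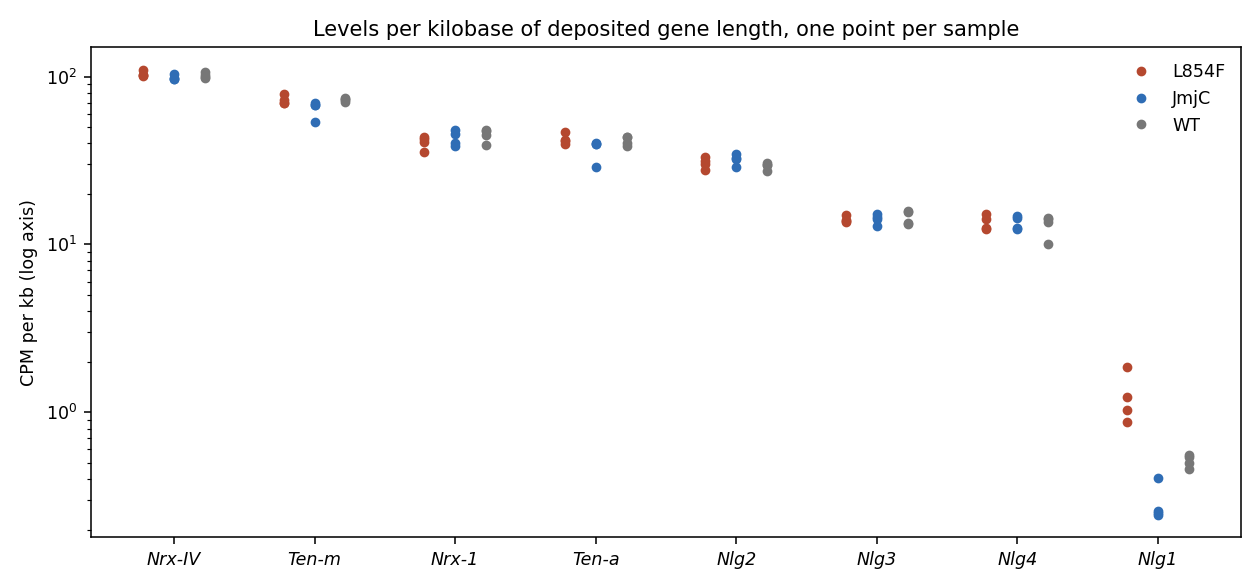
CPM per kilobase on a log axis, with 1 point per sample, for L854F, JmjC and WT side by side within each gene; genes run from the highest WT mean to the lowest. Nlg1 lies more than a decade under Nlg3 and Nlg4 in WT (0.514 against 14.5 and 13.1 CPM per kb).

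Nrx-1 (FBgn0038975, chromosome 3R:22468512-22486969, plus strand, 9 annotated transcripts) encodes the presynaptic neurexin. L854F replicates 1 to 4 had 466, 456, 379 and 435 CPM, and the JmjC replicates 484, 513, 413 and 430 CPM. The WT replicates had 508, 517, 420 and 478 CPM. All 3 groups overlapped, and replicate 3 was the lowest sample of each group. Relative to WT, Nrx-1 had a log2 fold change of -0.15 ± 0.081 (SE) in L854F, with an adjusted p of 0.368, and of -0.06 ± 0.084 (SE) in JmjC, with an adjusted p of 0.649. The 95% interval of the L854F change ran from 0.798-fold to 1.02-fold of WT.

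Nrx-IV (FBgn0013997, 3L:12146519-12156990, plus strand), the septate junction protein, varied less between samples than Nrx-1. It ranged from 498 to 543 CPM in L854F and from 478 to 515 CPM in JmjC, against 484 to 529 CPM in WT. These ranges overlapped throughout. Relative to WT its log2 fold change was 0.02 for L854F (95% interval -0.09 to 0.14) and -0.04 for JmjC (95% interval -0.15 to 0.06). The short gene CG32099 lies within the Nrx-IV span without overlapping its exons, and it rose in JmjC to 9.68 CPM against 7.23 CPM in WT (log2 fold change 0.42, adjusted p 0.0236).

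Nlg1 (FBgn0051146, 3R:7658247-7694874, plus strand, 2 annotated transcripts) encodes a neuroligin known for its postsynaptic role in larval muscle. It held 137, 111, 189 and 98 counts in L854F replicates 1 to 4, or 8.39, 6.94, 12.5 and 5.93 CPM. JmjC samples held 27, 28, 28 and 44 counts (1.65, 1.74, 1.71 and 2.73 CPM), and WT samples 52, 54, 62 and 62 counts (3.10, 3.38, 3.68 and 3.76 CPM). Every L854F sample lay above every WT sample, and every JmjC sample lay below every WT sample. L854F samples were also the most spread, with an SD of 34.4% of their mean, against 26.3% in JmjC and 8.72% in WT.

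In L854F against WT, Nlg1 averaged 8.45 ± 2.90 CPM in L854F and 3.48 ± 0.303 CPM in WT (SD, n = 4 each). The log2 fold change was thus 1.28 ± 0.223 (SE; adjusted p 0.00651), or 2.42-fold with a 95% interval from 1.72-fold to 3.40-fold. Leaving out any 1 of the 8 samples kept the call, with log2 fold changes from 1.02 to 1.41. For Nlg1 the authors' deposited table lists a log2 fold change of 1.23 and an adjusted p of 1.74e-05.

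In JmjC against WT, Nlg1 averaged 1.96 ± 0.516 CPM in JmjC and 3.48 ± 0.303 CPM in WT (SD, n = 4 each). On the log2 scale JmjC lay -0.83 ± 0.212 (SE) from WT, with an adjusted p of 0.0218. The ratio was 0.564-fold with a 95% interval from 0.408-fold to 0.780-fold. The call was lost without JmjC replicate 1 (adjusted p 0.0683), JmjC replicate 2 (adjusted p 0.0621), WT replicate 3 (adjusted p 0.0524) or WT replicate 4 (adjusted p 0.0530), with log2 fold changes from -0.80 to -0.75. The authors' deposited table gave a log2 fold change of -0.81 and an adjusted p of 0.0117.

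Both comparisons above use the same WT samples, so their opposite signs are not independent of each other. The direct comparison does not use WT. In L854F against JmjC the log2 difference in Nlg1 was 2.11 ± 0.262 (SE), with an adjusted p of 0.000338. The ratio was 4.32-fold with a 95% interval from 2.90-fold to 6.43-fold. All 4 L854F samples lay above all 4 JmjC samples. The call held without any 1 of the 8 samples, with log2 fold changes from 1.86 to 2.31.

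**Figure D3:**
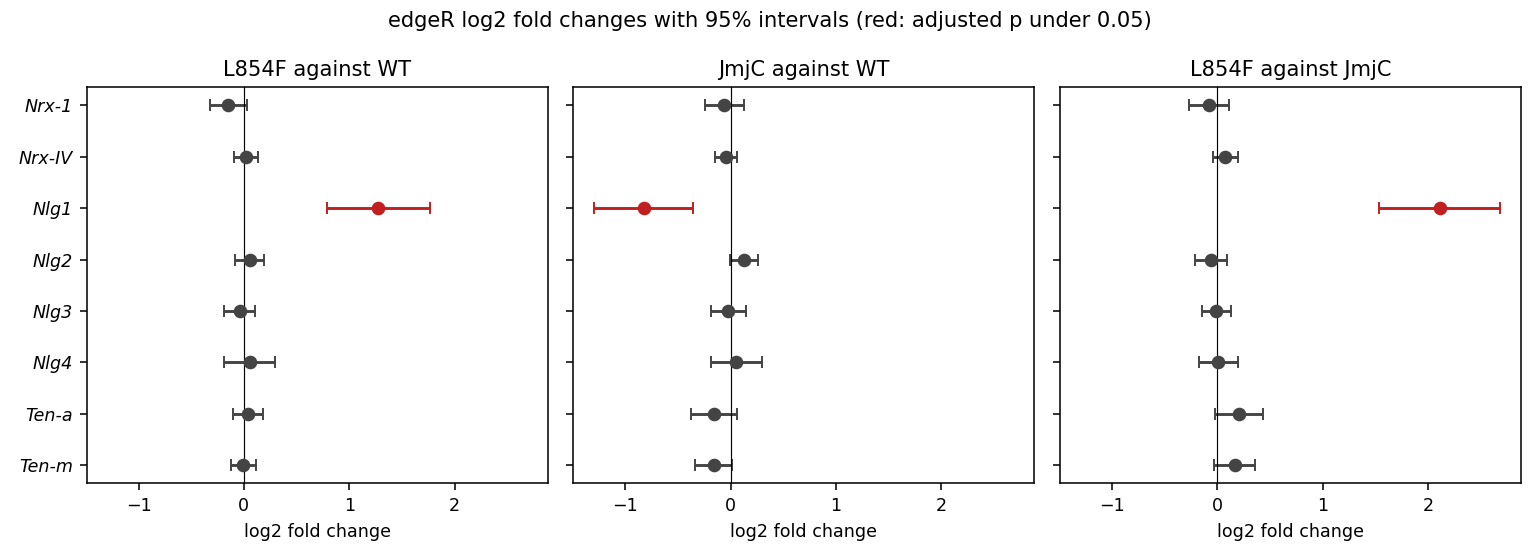
Log2 fold changes of the 8 genes from edgeR in the 3 comparisons, with 95% intervals; a positive value means higher in the group named first, and red marks an adjusted p under 0.05. Nlg1 alone stands clear of 0, at 1.28, -0.83 and 2.11.

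In bulk tissue, a change in the number of cells that express a gene and a change in RNA per cell cannot be told apart. Since Nlg1 is known from muscle, 10 muscle markers were summed. Their sum was 41.2 to 76.6 CPM in L854F and 50.9 to 63.6 CPM in JmjC, against 76.0 to 132 CPM in WT, and none of the 10 was at 0 in all samples of a group. Without sls, the most abundant, the other 9 summed to 12.8 to 38.5 CPM in L854F and 19.5 to 30.3 CPM in JmjC. In WT they summed to 28.8 to 77.3 CPM, so that JmjC and WT overlapped. In L854F 1 of 9 tested markers was lower than in WT and none was higher, while Nlg1 was higher. In JmjC 3 of 9 were lower and none was higher, while Nlg1 was lower too. Over all tested genes, 2.49% were called lower in L854F and 7.67% in JmjC, each against WT. The myosin light chain gene Mlc2 stood at 1.84 CPM in L854F (log2 fold change -2.59, adjusted p 0.00174) and 2.36 CPM in JmjC (log2 fold change -2.23, adjusted p 0.000686), against 11.1 CPM in WT. The part of muscle RNA in the Nlg1 result was not tested.

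The other neuroligins did not pass the test in any comparison. Nlg2 (FBgn0031866, 2L:6874900-6906656, plus strand) is required on both sides of the larval neuromuscular junction. L854F replicates 1 to 4 had 167, 177, 147 and 161 CPM. The JmjC replicates had 172, 183, 155 and 173 CPM, against 163, 159, 146 and 159 CPM for WT. JmjC replicates 1, 2 and 4 lay above all WT samples, and JmjC replicate 3 lay among them. The log2 difference of JmjC from WT was 0.13 ± 0.059 (SE), with an adjusted p of 0.179, and without JmjC replicate 3 it was 0.17 (adjusted p 0.04996). In L854F against WT it was 0.06 (SE 0.062, adjusted p 0.708).

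Nlg3 (FBgn0083963, 3R:7570281-7639434, minus strand) ranged from 89.1 to 98.0 CPM in L854F and from 84.6 to 100.3 CPM in JmjC, against 87.1 to 103 CPM in WT. Its log2 fold changes were -0.04 in L854F against WT and -0.02 in JmjC against WT (95% intervals -0.19 to 0.11 and -0.19 to 0.14). Nlg4 (FBgn0083975, 3R:20204809-20245473, plus strand), known for a role in the clock neurons that control sleep, ranged from 78.8 to 96.6 CPM in L854F and from 79.4 to 95.1 CPM in JmjC. Its WT range was 64.0 to 92.5 CPM, with WT replicate 3 the lowest of the 12 samples. Log2 fold changes of Nlg4 were 0.06 in L854F against WT and 0.05 in JmjC against WT (SE 0.110 in both, adjusted p 0.851 and 0.779).

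Replicate 3 was the lowest sample of all 3 groups for Nrx-1, Nlg2 and Nlg3, and of JmjC and WT for Nlg4. The summed level of 8 neuron markers was lowest in replicate 3 of each group as well, at 4451 CPM in L854F and 4518 CPM in JmjC, against 4452 CPM in WT. The part of neuronal RNA in these values was not tested.

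Nlg1 and Nlg3 are neighbours on chromosome 3R. They are transcribed away from each other from annotated starts 18.8 kb apart (build BDGP6.54, dm6 coordinates), with no other gene and 4 annotated transposons between them. No neighbouring tested gene was called in any comparison. Nlg3 had log2 fold changes of -0.04 for L854F and -0.02 for JmjC, each against WT, and of -0.01 for L854F against JmjC. On the other side the nearest tested gene was pyd3, 53039 bases beyond the end of Nlg1, with, in that order, log2 fold changes of -0.25, 0.12 and -0.36 (adjusted p 0.599, 0.656 and 0.206). The annotated end of Nlg1 overlaps a transposon of the invader3 family by 243 bases. The deposited length of Nlg1 was 6762 bases, above the 6006 bases of its exons in this annotation. The gene model that was counted may thus differ from this annotation, and whether it differs in the overlap is not known. How reads in that overlap were counted is not stated, and its part in the Nlg1 counts was not tested.

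**Figure D4:**
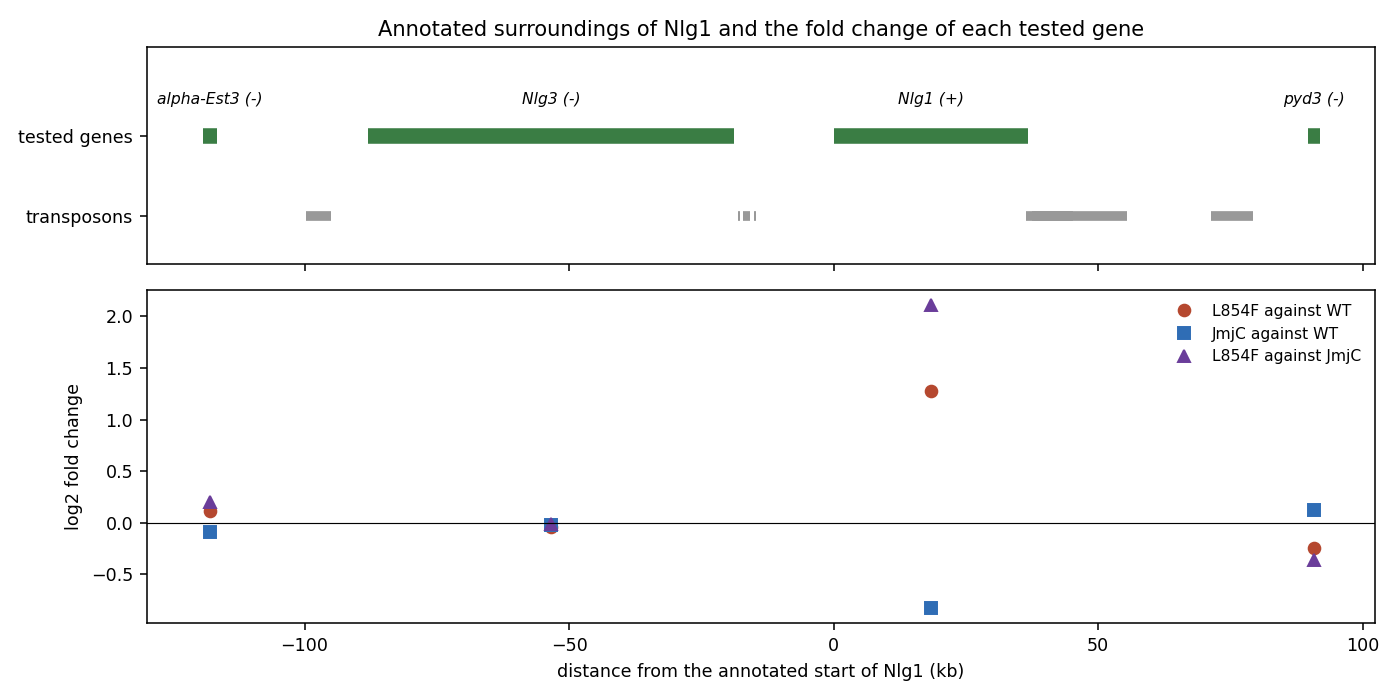
Upper panel: tested genes (green, with strand) and annotated transposons (grey) from alpha-Est3 to pyd3, to scale, as distance in kb from the annotated start of Nlg1. Lower panel: log2 fold change of each tested gene, placed at its middle, for L854F over WT, JmjC over WT and L854F over JmjC; Nlg1 stands at 1.28, -0.83 and 2.11, and its neighbour Nlg3 near 0.

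Ten-a (FBgn0267001, X:12043698-12335214, plus strand) spans 292 kb with 11 annotated transcripts and encodes the mainly presynaptic teneurin. L854F replicates 1 to 4 had 642, 544, 567 and 569 CPM, and the JmjC replicates 546, 545, 540 and 394 CPM. The WT replicates had 595, 594, 548 and 528 CPM. JmjC replicate 4 was the lowest of the 12 samples, and the groups overlapped. Ten-a differed from WT by a log2 fold change of 0.04 ± 0.066 (SE) in L854F (adjusted p 0.834) and of -0.16 ± 0.099 (SE) in JmjC (adjusted p 0.299). Without JmjC replicate 4 the JmjC value was -0.06 (adjusted p 0.536). Between the mutants, L854F against JmjC, it was 0.20 (adjusted p 0.213), and 0.10 without that sample (adjusted p 0.404).

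Ten-m (FBgn0004449, 3L:22293044-22407863, minus strand, 115 kb) encodes the teneurin enriched in muscle at the neuromuscular junction. L854F replicates 1 to 4 had 906, 799, 807 and 835 CPM. The JmjC replicates had 786, 809, 786 and 619 CPM, against 836, 855, 849 and 817 CPM for WT. All 4 JmjC samples lay below all 4 WT samples, while L854F samples overlapped WT. The log2 difference of JmjC from WT was -0.16 ± 0.079 (SE), with an adjusted p of 0.189, and -0.08 without JmjC replicate 4 (adjusted p 0.286). In L854F against WT it was -0.0044 (SE 0.056, adjusted p 0.980). Exons of both teneurins overlap a long noncoding RNA gene on the same strand, lncRNA:CR43960 for Ten-a and lncRNA:CR45962 for Ten-m. The second averaged 1.44 CPM in L854F and 2.21 CPM in JmjC, against 1.56 CPM in WT, and the first at most 0.0616 CPM in any group.

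Nlg1 and Ten-m were thus the genes whose JmjC and WT samples did not overlap, 2 of 8, in a comparison where 22.7% of tested genes did not overlap. In both other comparisons only Nlg1 did not overlap, 1 of 8, beside 12.7% of tested genes for L854F against WT and 20.7% for L854F against JmjC. JmjC replicate 4, low for both teneurins, had the highest summed neuron marker level of its group (5458 CPM, against 4518 to 5136 CPM in the other JmjC samples). Its summed glial marker level (2318 CPM) was the highest of the 12 samples. Without alrm, an astrocyte gene higher in JmjC than in WT, the other 7 glial markers summed to at most 1542 CPM in JmjC. Their highest WT sum was 1686 CPM. On the third principal component of log expression JmjC replicate 4 had the lowest score of the 12 samples (-19.5, against 2.02 to 14.2 for the other JmjC samples). Its library total and TMM factor (16073820 counts, 1.004) lay within those of the other samples. The part of these differences in its teneurin values was not tested.

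Each 95% interval gives a range for the change of 1 gene in 1 comparison. The intervals are not joint over genes, and they rest on a spread between samples that may be technical. Over the 7 genes that were not called, the interval ends ran from 0.798-fold to 1.23-fold for L854F and from 0.769-fold to 1.23-fold for JmjC, each relative to WT. They ran from 0.831-fold to 1.35-fold for L854F relative to JmjC. A p that misses the threshold does not show that their levels were equal.

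Proportions within a sample do not depend on the scaling between samples. Nlg2 made up 51.4% ± 1.85 of the summed neuroligin counts per kb in L854F and 53.4% ± 0.545 in JmjC, against 51.3% ± 1.79 in WT (SD, n = 4 each). Nlg3 and Nlg4 each made up between 19.6% and 25.9% in every sample. Nlg1 made up 1.98%, 1.65%, 3.33% and 1.53% in L854F replicates 1 to 4. In JmjC it made up 0.400%, 0.398%, 0.462% and 0.672%, and in WT 0.748%, 0.831%, 1.06% and 0.970%. None of these 3 groups overlapped. Exact two-sided permutation tests over 70 assignments gave p = 0.0286 for the Nlg1 share in each comparison, the smallest p that 4 against 4 samples allow, and 0.0514 after adjustment over 9 such tests.

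The ratio of Nrx-1 to the summed neuroligins was lower in both mutants than in WT. It was 0.696, 0.683, 0.637 and 0.708 in L854F and 0.741, 0.740, 0.707 and 0.669 in JmjC. In WT it was 0.775, 0.804, 0.767 and 0.780, above every mutant sample. The log2 difference from WT was -0.20 for L854F and -0.13 for JmjC, each with p = 0.0286 by the exact permutation test and 0.0514 after adjustment over 9 tests, so neither passed 0.05. That p is the smallest that 4 against 4 samples allow, so a wider separation of these groups could not have passed either. The same 4 WT samples served in both comparisons with WT. Between the mutants the log2 difference was -0.07 (exact permutation p = 0.229), and the groups overlapped. Neither Nrx-1 nor Nlg2, Nlg3 or Nlg4 was called by itself in these comparisons.

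The ratio of Ten-a to Ten-m was 0.586 ± 0.0119 in L854F and 0.569 ± 0.0216 in JmjC, against 0.570 ± 0.0287 in WT (SD, n = 4 each). The groups overlapped in all 3 comparisons, and exact permutation p-values were 0.343 for L854F against WT, 0.971 for JmjC against WT and 0.200 for L854F against JmjC. In JmjC replicate 4, where both teneurins were low, the ratio was 0.538, the lowest of the 12 samples.

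**Figure D5:**
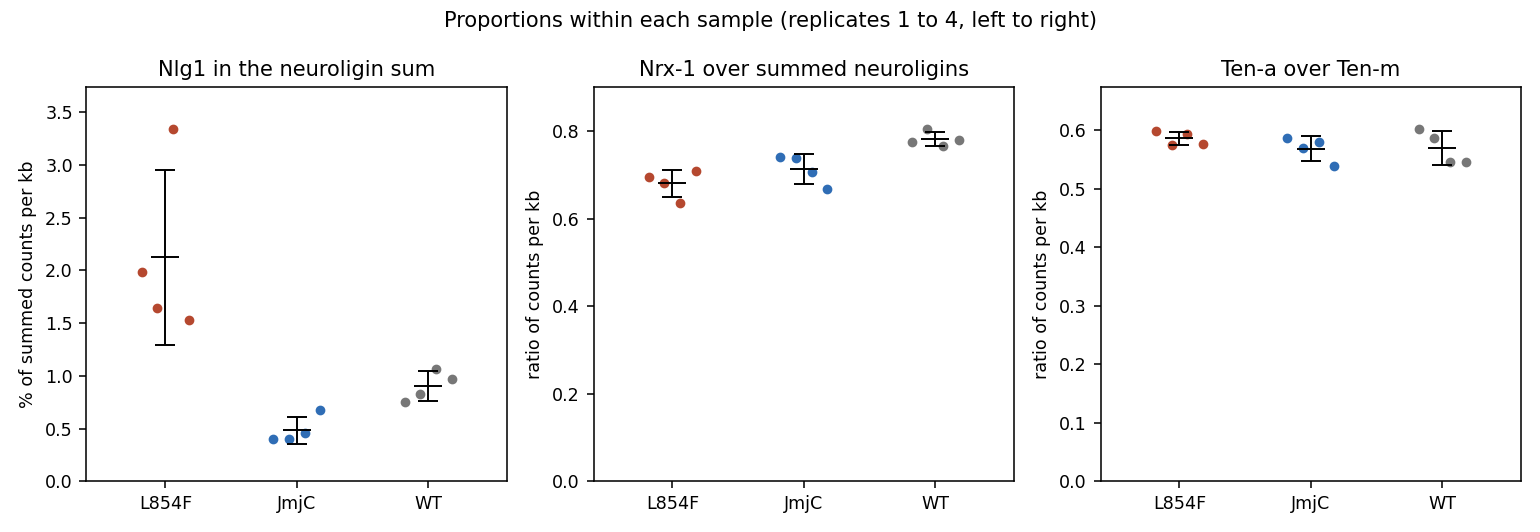
Proportions within each sample for L854F, JmjC and WT, replicates 1 to 4 from left to right, with mean and SD (n = 4); axes start at 0. Left: Nlg1 as a percentage of the summed neuroligin counts per kb, where no groups overlap. Middle: Nrx-1 over the summed neuroligins, with all WT samples (0.767 to 0.804) above the mutants. Right: Ten-a over Ten-m, where all groups overlap.

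Genes that work with these proteins were read from 4 lists, chosen with earlier results of these data known, that share some members. Of their 70 genes 3 were called for L854F and 12 for JmjC, each against WT, and 11 between the mutants, beside the 5.54%, 17.3% and 16.0% of all tested genes given above. The 70 include a few genes with counts too low to be tested, while the shares are of tested genes only. Of the presynaptic and active zone list, with neurexin-binding scaffolds such as CASK and RhoGAP100F (Syd-1), none of 12 tested genes was called in the main fit of any comparison. The synaptic vesicle priming gene unc-13 was called lower in L854F than in JmjC only with same-numbered samples treated as a block. Its adjusted p in the main fit was 0.162. The labels state no pairing, so calls that need this replicate block rest on a pairing that was not established. CASK stood at 456 ± 29.8 CPM in L854F and 453 ± 18.3 CPM in JmjC, against 464 ± 23.4 CPM in WT. The list's median log2 fold changes in the 3 comparisons were 0.0035, -0.0070 and 0.02. The calcium channel gene cac, at -0.22 in JmjC against WT (adjusted p 0.0599), was called lower there with library totals, without WT replicate 4 and without JmjC replicate 4. DESeq2 called cac and Spn lower in that comparison.

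The postsynaptic and scaffold list has 17 genes. Its muscle glutamate receptor genes GluRIIA to GluRIIE averaged at most 1.03 CPM in any group, and the genes not tested were among them. GluRIIA was called lower in JmjC (0.17 CPM) than in WT (0.65 CPM) in the fit with no filter on low counts. With the filter it was not tested there. Of this list, 1 of 14 tested genes rose in L854F against WT, beside 3.04% of all tested genes called higher. It was wit, the type II BMP receptor of motor neurons, at 110.3 ± 6.52 CPM in L854F and 93.5 CPM in WT (log2 fold change 0.24, adjusted p 0.0250), and its call held in 2 of the 8 fits that left out 1 sample. In JmjC against WT 2 of 13 rose and 1 fell, beside 9.66% of all tested genes called higher and 7.67% called lower. The scaffold gene dlg1 averaged 301 ± 5.35 CPM in JmjC and 248 CPM in WT (log2 fold change 0.28, adjusted p 0.0016), and wit rose there as well (0.25, adjusted p 0.00335). The spectrin gene beta-Spec fell by 0.18 on the log2 scale (adjusted p 0.0448), a call that held in 1 of 8 such fits and was lost under the block. In L854F against JmjC 1 of 13 genes was called, beside 16.0% of all tested genes. Neto, the auxiliary subunit of muscle glutamate receptors, was lower in L854F (17.3 ± 1.44 CPM) than in JmjC (23.4 CPM), with an adjusted p of 0.00739. With the replicate block 3 of 13 were called there, Neto lower and Pak and beta-Spec higher in L854F. Median log2 fold changes of the list were -0.02, -0.10 and 0.09 in the 3 comparisons.

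The list of septate junction genes holds partners of Nrx-IV, which itself was not called. Of its 24 genes 1 rose and 1 fell in L854F, and 3 rose and 2 fell in JmjC, each against WT. Between the mutants 4 were higher in L854F and 2 lower. Over all tested genes, 5.54%, 17.3% and 16.0% were called in these comparisons, in that order. The polarity gene l(2)gl rose to 240.3 ± 19.9 CPM in L854F and to 333 ± 32.4 CPM in JmjC, against 173 CPM in WT (log2 fold changes 0.47 and 0.94, adjusted p 0.00152 and 9.69e-06). Its mutant levels differed too (log2 fold change -0.47 in L854F against JmjC, adjusted p 0.00229). The septate junction membrane protein gene pasi1 fell in both mutants, by 0.39 on the log2 scale in L854F (adjusted p 0.0353) and by 0.49 in JmjC (adjusted p 0.0145). Its JmjC call held in all 8 fits that left out 1 sample and its L854F call in 1 of 8, while that of l(2)gl in L854F held in all 8. In JmjC the gene axo, which encodes the secreted neurexin-like protein axotactin, fell to 232 ± 23.1 CPM, against 305 CPM in WT (log2 fold change -0.40, adjusted p 0.00288). In L854F against JmjC the scaffold gene vari was lower (-0.24, adjusted p 0.0155) and Gli, which encodes gliotactin, higher (0.47, adjusted p 0.0171; not called without JmjC replicate 2). The list medians were -0.0086, 0.01 and -0.02.

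Septate junctions of the nerve cord lie in glia, and 8 glial markers were read beside them. The markers wrapper and nrv2 are also on the septate junction list, so the glial values are not separate from it. In JmjC 1 of 8 glial markers was higher than in WT and 2 were lower, while in L854F 1 was lower. Of all tested genes 17.3% were called in JmjC and 5.54% in L854F, each against WT. The glial marker higher in JmjC was alrm, an astrocyte gene, at 716 ± 41.9 CPM in JmjC and 229 CPM in WT (log2 fold change 1.65, adjusted p 4.82e-07). The barrier glia transporter Mdr65 fell in both mutants, to 242 CPM in L854F (log2 fold change -0.41, adjusted p 0.0288) and 227 CPM in JmjC (-0.50, adjusted p 0.00342), against 320.3 CPM in WT. The summed glial level was 1366 to 1712 CPM in L854F and 1918 to 2318 CPM in JmjC, against 1608 to 1944 CPM in WT. Without alrm the other 7 markers summed to 1149 to 1414 CPM in L854F and 1239 to 1542 CPM in JmjC, against 1412 to 1686 CPM in WT, and the list's median log2 fold change was -0.07 in L854F and -0.19 in JmjC, each against WT. The part of glial RNA in the septate junction values was not tested.

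The list of teneurin partners and other trans-synaptic adhesion genes had no call among its 20 genes for L854F relative to WT. In JmjC against WT 5 of 20 fell and none rose, beside 7.67% of all tested genes called lower and 9.66% called higher. The list median was -0.11, beside 0.0030 over all tested genes. The NCAM homolog Fas2 averaged 583 ± 17.3 CPM in JmjC and 685 CPM in WT (log2 fold change -0.23, adjusted p 0.00628). The homophilic adhesion gene Con (connectin) fell by 0.30 on the log2 scale (adjusted p 0.0149), and the secreted semaphorin gene Sema2b fell by 0.18 (adjusted p 0.0217). With 1 sample left out in turn, the calls of Fas2 and Con held in all 8 fits and that of Sema2b in 3. Over those 8 fits the count ran from 2 to 5. It was 2 without WT replicate 2 or 3 or JmjC replicate 1 or 2, and 3 without WT replicate 1 or JmjC replicate 4. In L854F against JmjC 4 of 20 were higher in L854F and none was lower, beside 7.20% of all tested genes called higher and 8.80% called lower. Con (0.29, adjusted p 0.00824), Sema2b (0.24, adjusted p 0.0102) and the axon guidance gene beat-Ia (0.20, adjusted p 0.0306) had the smallest adjusted p. The beat-Ia call held in 2 of the 8 fits that left out 1 sample. Con and Sema2b alone were called without L854F replicate 1, 3 or 4 or JmjC replicate 1, 2 or 4, and over all 8 fits the count ran from 2 to 7. With the replicate block it was 6, with 18w and dlp added.

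The tissue label was checked against markers. Neuron markers were abundant, with a summed level of 4451 to 5117 CPM in L854F and 4518 to 5458 CPM in JmjC, against 4452 to 5078 CPM in WT. Neuron markers nSyb and VAChT rose in JmjC (log2 fold changes 0.32 and 0.27, adjusted p 0.0323 and 0.0471), while none of 8 was called in L854F against WT. The neuroblast gene mira fell in both mutants (log2 fold changes -0.28 in L854F and -0.54 in JmjC, adjusted p 0.0218 and 0.000816), and ase rose in JmjC (0.26, adjusted p 0.0260). Of the 6 neuroblast markers 5 were not called in L854F and 4 not in JmjC, each against WT. The median log2 fold change of these markers was 0.0054 in L854F and 0.05 in JmjC. Hemocyte markers summed to 96.6 to 110.4 CPM in L854F and 64.4 to 94.6 CPM in JmjC, against 94.8 to 113 CPM in WT, and Pxn fell in JmjC (-0.53, adjusted p 0.00327). Without Pxn the other 5 summed to 4.57 to 12.5 CPM in L854F and 8.27 to 18.8 CPM in JmjC, against 7.68 to 16.0 CPM in WT. Trachea markers summed to 146 to 168 CPM in L854F and 152 to 165 CPM in JmjC, below the 169.9 to 173 CPM of WT. Fat body markers summed to 15.4 to 168 CPM in L854F and 18.2 to 48.9 CPM in JmjC, against 22.6 to 119 CPM in WT. Salivary gland markers summed to 0.464 to 12.1 CPM in L854F and 5.81 to 56.4 CPM in JmjC, against 3.74 to 19.1 CPM in WT. No single marker of trachea, fat body or salivary gland was called in any comparison.

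The genes most like Nlg1 were sought by the root mean square difference of log2(CPM + 0.1), relative to each gene's WT mean, over the 12 samples and 9004 candidate genes. The closest was CG1674 on chromosome 4 (difference 0.415). It stood at 26.4 ± 4.73 CPM in L854F and 10.7 ± 1.77 CPM in JmjC, against 14.2 ± 1.61 CPM in WT. The next was cry on chromosome 3R (0.418), the cryptochrome gene, at 2.28 ± 0.295 CPM in L854F and 0.755 ± 0.111 CPM in JmjC, against 1.18 ± 0.201 CPM in WT. CG32640 on the X chromosome followed (0.439), at 10.9 ± 2.90 CPM in L854F and 4.60 ± 1.32 CPM in JmjC, against 5.95 ± 0.813 CPM in WT. Reads of CG32640 may be divided with a near-identical copy, so its value is uncertain. All 3 were called in L854F against WT and in L854F against JmjC, and none in JmjC against WT (adjusted p 0.0519, 0.120 and 0.243). Since they were chosen for likeness to Nlg1 in the same samples, their calls are not independent of that choice.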

How the data were processed

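The authors deposited RSEM expected counts per gene, already whole numbers, in 1 table per mutant with the same WT columns. They used Bowtie2 2.2.5, RSEM 1.2.12, DESeq2 and build dm6, per the submitters' processing notes; libraries were stranded mRNA, per the labels' protocols, and strand use in counting is not stated. Their deposited tables also hold log2 fold changes, p-values, a mean expression signal per group (used only to check that the deposited fold change equals the log2 ratio of these means) and a gene length in bases. Lengths differed between the tables by at most 1.95% for the 8 genes; those of the L854F table were used. FlyBase identifiers gave positions in annotation BDGP6.54.

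Fits used edgeR 4.0.16 in R 4.3.3 (filterByExpr, minimum count 10 and total 15, TMM, quasi-likelihood F-test), on the 8 samples of a comparison, after a test on simulated data. L854F against JmjC used genes in both tables. CPM used 1 set of TMM factors over 12 samples. Ratios of counts per kb were compared by exact permutation (scipy 1.17.1). Alternatives covered DESeq2 1.42.0, other scalings, no filter, robust dispersion, all 12 samples, a replicate block and leaving out samples; the partner lists without JmjC replicate 4 were added after its teneurin values were seen. Named genes were the 8 members and kdm5; at most 3 called genes per partner list and comparison by adjusted p; the highest and at most 2 called markers per cell type, given where they bear on a result; and the 3 genes most like each called member. Other genes named were chosen after their values were seen: CG32099, pyd3, CASK, cac, Spn, unc-13, GluRIIA to GluRIIE, Pak, 18w, dlp and the JmjC value of pasi1. The genes wrapper and nrv2 were named only as shared between the glial and septate junction lists. The members and lists were chosen with earlier results of these data known. Deviations of same-numbered L854F and JmjC samples correlated positively across genes (0.103 to 0.172). Yet L854F replicate 3 correlated more with JmjC replicate 4 (0.149) than with JmjC replicate 3 (0.103). No label gives a shared batch, so pairing was not established and the block served only as an alternative.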

Additional observations from a re-analysis of the deposited data

Results flagged for a closer look

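Nlg1 differed between the effects of the mutants: the log2 fold change in L854F against JmjC, which tests that difference directly, was 2.11 (edgeR adjusted p 0.000338), with 4 of 4 L854F samples above 4 of 4 JmjC samples.

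Of 33 sets of 4 samples checked for a sample far from the rest, 5 held one by Dixon's test, where chance gives about 1 in 20. The sets reuse the same 12 samples, so they are not independent and the count does not test for an excess. JmjC replicate 4 was the lowest of its group for Ten-a at 394 CPM and for Ten-m at 619 CPM, and the highest for Nlg1 at 2.73 CPM. Without it, Nlg1 had a log2 fold change of -1.03 in JmjC against WT. Nrx-IV was highest in L854F replicate 4 at 543 CPM and in JmjC replicate 3 at 515 CPM.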

How the results depend on the processing

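Nlg1 kept its direction in all 15 alternatives of each comparison and its call in all of those for L854F against WT and L854F against JmjC. In JmjC against WT it kept the call in 11 of 15; adjusted p ran from 0.00655 to 0.0683. The number of the 8 genes called in that comparison ran from 0 to 2 when 1 sample was left out, the second gene being Nlg2 without JmjC replicate 3. Over all genes, leaving out 1 sample gave 307 (without L854F replicate 1) to 426 calls in L854F against WT, against 504 with all samples, and 977 to 1725 in L854F against JmjC, against 1473 (977 without JmjC replicate 1, 980 without L854F replicate 1). Partner genes called ran from 1 to 3, against 3 (1 without L854F replicates 1 or 3 or WT replicates 2 or 4), and from 6 to 14, against 11 (6 or 7 without L854F replicate 1 or JmjC replicates 1 or 2). Values near 0 changed sign with 1 sample left out: in L854F against WT the ranges were -0.0076 to 0.051 for Nrx-IV, -0.0499 to 0.1045 for Nlg4, -0.0148 to 0.0634 for Ten-a and -0.0439 to 0.0145 for Ten-m; in JmjC against WT -0.0635 to 0.0234 for Nlg3 and -0.0559 to 0.1025 for Nlg4; in L854F against JmjC -0.0543 to 0.0261 for Nlg3 and -0.0473 to 0.0574 for Nlg4, which was -0.0122 with library totals. The log2 Ten-a to Ten-m ratio in JmjC against WT ran from -0.0233 to 0.0237. The cause was not tested. Leaving out 1 sample cannot give an exact p under 0.0571, and sign flips over 4 pairs none under 0.125.

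With the replicate number as a block, Nlg1 had log2 fold changes of 1.23, -0.85 and 2.08 (adjusted p 0.00888, 0.0269 and 0.00135) in L854F against WT, JmjC against WT and L854F against JmjC, and calls over all genes numbered 514, 1647 and 2038; no call of the 8 genes changed, and partner genes called in L854F against JmjC numbered 16, against 11. Same-numbered mutant and WT samples did not all deviate together (lowest correlations 0.0114 for L854F and -0.0943 for JmjC). In no comparison, L854F against JmjC included, did each sample correlate best with its own number. A shared number thus does not establish a pair. Nlg1 rests on 27 to 189 counts per sample, which limits its precision.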
